A study of Homo sapiens with 6 samples.

Results

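The 10 genes followed here in cells of the human hepatocellular carcinoma line PLC/PRF/5 act on the fate of pyruvate and lactate. They are the lactate dehydrogenase subunits LDHA and LDHB, the lactate transporters SLC16A1 and SLC16A3 with their partner BSG, the pyruvate dehydrogenase kinases PDK1, PDK2, PDK3 and PDK4, and the kinases' substrate PDHA1. All were taken by symbol, and all 10 were found among the 24432 genes of the files. They were selected on FPKM values of this same comparison, whose outcome was already known, so their values are given as a description with no test. The series held RNA-seq of 3 libraries of lenvatinib-resistant cells and 3 of lenvatinib-sensitive cells. Lenvatinib is an oral kinase inhibitor of VEGF and FGF receptors used against liver cancer. Resistant cells had been grown in rising lenvatinib, per the labels from 20 µmol/L in steps of 0.5 mmol/L to 40 mmol/L, units that do not match each other, and carry the treatment label Lenvatinib. Sensitive cells carry the genotype label WT and the treatment label control. Exposure to the drug and resistance to it cannot be told apart in this design, and nothing in the labels says whether the resistant cells are 1 clone or whether replicates were separate cultures, so errors and p-values may cover technical spread alone.

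Glycolysis ends in pyruvate, which lactate dehydrogenase reduces to lactate or the pyruvate dehydrogenase (PDH) complex oxidises to acetyl-CoA in the mitochondrion. Lactate dehydrogenase is a tetramer of LDHA and LDHB subunits in any mixture. LDHA-rich enzyme is typical of liver and skeletal muscle, and LDHB-rich enzyme of heart. PDH kinases switch the PDH complex off by phosphorylating PDHA1, and PDH phosphatases reverse this.

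Values are FPKM, a level per transcript length and library size, so levels of different genes can be set side by side. Summed FPKM ran from 366048 to 377923 in resistant and from 410492 to 475088 in sensitive libraries, and by the spacing of low values their depths spread over 3.47%. Across tested genes, resistant libraries correlated at Pearson's r of 0.9939 to 0.996 and sensitive libraries at 0.9515 to 0.9947, where sensitive replicate 3 stood apart from the other two, and libraries of different groups at 0.6796 to 0.7064 (genes are not independent replicates). Checked against hepatocyte markers, the line's tissue of origin, the 16 markers summed to 19.6 to 51.2 FPKM in resistant libraries and to 5194 to 5400 FPKM in sensitive ones. In resistant cells 9 of the 16 were under 1 FPKM in every library, against 1 of 16 in sensitive cells. Albumin (ALB) was listed at 0 in resistant replicates 1 and 3, and was low in sensitive libraries too, at 4.02, 3.61 and 2.01 FPKM. SERPINA1 (2252 FPKM) and AMBP (991 FPKM) had the highest sensitive means of the 16 hepatocyte markers. These markers move with every difference below, and their part in it was not tested. All 6 libraries carry the PLC/PRF/5 label, but whether the resistant and sensitive cells come from the same line was not tested, and a difference between lines cannot be told apart from resistance here. In bulk RNA, fewer cells of a type and less RNA per cell cannot be told apart. PTPRC, the pan-leukocyte marker, and KDR, an endothelial receptor, were listed at 0 in all 6 libraries, and the 6 fibroblast markers with values summed to at most 0.236 FPKM in resistant and 1.80 FPKM in sensitive libraries. Lysozyme (LYZ), from the leukocyte marker list, was at 0.480, 2.27 and 0.323 FPKM in resistant and at 240, 238 and 249 FPKM in sensitive libraries.

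The lactate dehydrogenase pool differed in make-up between the groups. LDHB was at 440, 415 and 435 FPKM in resistant replicates 1 to 3 and at 0.232, 0.625 and 0.449 FPKM in sensitive replicates 1 to 3. Every resistant library held LDHB at a level close to that of LDHA, and every sensitive library held it below 1 FPKM. Mean LDHB was 430 ± 13.2 FPKM in resistant and 0.435 ± 0.197 FPKM in sensitive cells (SD, n = 3 per group throughout), a 988-fold ratio of means. LDHA, the subunit best known for turning pyruvate into lactate, went the other way, at 424, 410 and 411 FPKM in resistant and 595, 652 and 578 FPKM in sensitive libraries. The groups did not overlap for either subunit, and mean LDHA was 415 ± 8.04 FPKM in resistant and 609 ± 38.8 FPKM in sensitive cells. On the log2(FPKM + 1) scale the fitted difference, resistant minus sensitive, was 8.24 (SE 0.13) for LDHB and -0.55 (SE 0.09) for LDHA. The LDHA difference lay between the lower and upper quartiles of all tested genes (-0.70 and 0.80). It was -0.42 under quantile normalization and -0.61 when scaled to the geometric mean sample.

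The LDHA to LDHB ratio was 0.964, 0.988 and 0.944 in resistant replicates 1 to 3, and 2563, 1044 and 1289 in sensitive replicates 1 to 3. LDHB thus made up 50.9% ± 0.563 of the LDHA and LDHB transcripts in resistant cells and 0.0707% ± 0.0289 in sensitive cells. Sensitive ratios divide by LDHB values under 1 FPKM. With 1 FPKM added to both values the mean ratio was 0.966 ± 0.0217 in resistant and 429 ± 47.8 in sensitive cells. The sum of both subunits was 845 ± 19.7 FPKM in resistant and 609 ± 39.0 FPKM in sensitive cells, with no overlap, and the lower LDHA of resistant cells stood beside a larger total.

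**Figure D1:**
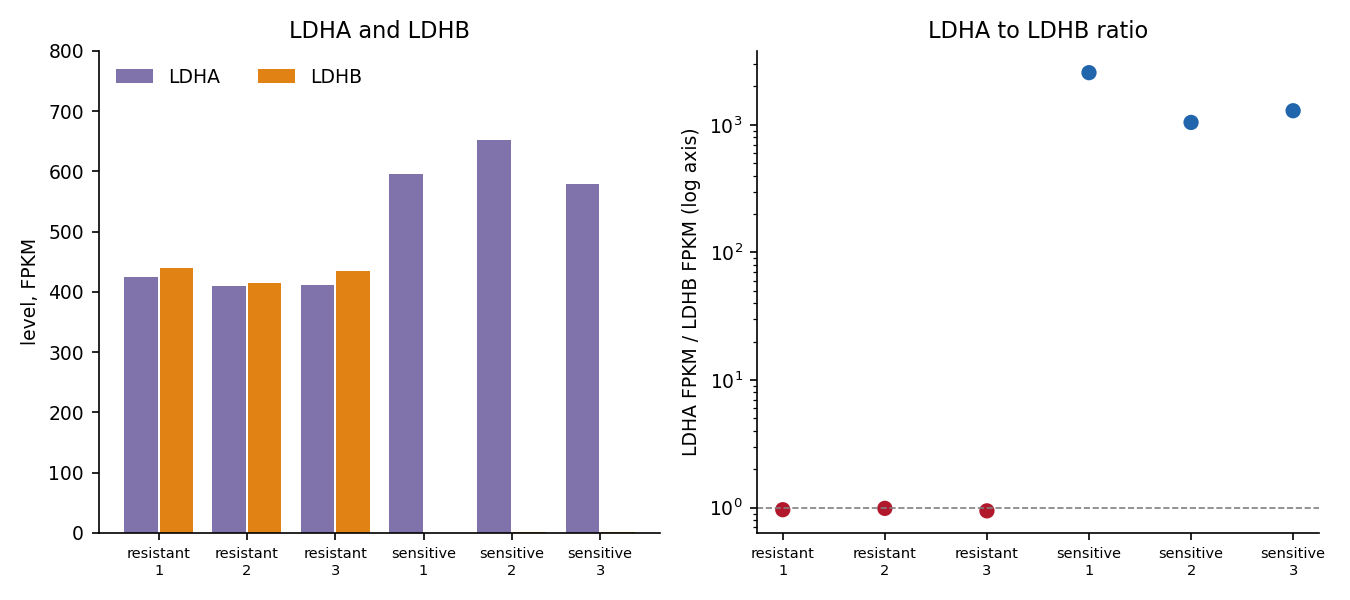
Left, LDHA and LDHB levels in FPKM as bars for each of the 6 libraries, where the LDHB bars of the sensitive libraries (0.232 to 0.625 FPKM) are too short to see. Right, the LDHA to LDHB ratio of each library on a log axis, with a dashed line at 1: the resistant libraries lie just below it and the sensitive ones run from 1044 to 2563.

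The stretches upstream of the starts of these genes are shown because LDHA is a textbook target of hypoxia-inducible factors, whose binding core is ACGTG or GCGTG, and because LDHA and LDHB had unlike patterns. Each is the 250 bases before the start of transcription, 5′ to 3′ on the gene's strand, from the RefSeq table (GRCh38.p14), with every ACGTG or GCGTG on either strand in capitals. LDHA is at chr11:18394313-18394562 (plus strand) and LDHB at chr12:21657843-21658092 (minus strand). Of 2 LDHA windows, the one with the most annotated transcript starts is shown.
LDHA: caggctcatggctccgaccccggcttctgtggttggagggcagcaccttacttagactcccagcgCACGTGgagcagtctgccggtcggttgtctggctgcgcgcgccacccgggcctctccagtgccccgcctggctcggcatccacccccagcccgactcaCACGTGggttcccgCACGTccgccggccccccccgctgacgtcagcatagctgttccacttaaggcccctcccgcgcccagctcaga
LDHB: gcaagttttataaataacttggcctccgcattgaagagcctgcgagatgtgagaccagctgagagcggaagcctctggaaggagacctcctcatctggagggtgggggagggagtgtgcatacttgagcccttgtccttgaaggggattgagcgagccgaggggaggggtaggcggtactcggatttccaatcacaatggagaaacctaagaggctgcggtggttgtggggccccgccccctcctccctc
LDHA held 3 separate stretches with the core, 2 of which form the palindrome CACGTG, the E-box that MYC can bind. LDHB held none of these letters in its window. Of 35114 windows of this length in the table, 43.2% hold ACGTG or GCGTG and 6.35% hold CACGTG, so a match is common and is no evidence of binding. CG dinucleotides, the sites of DNA methylation, numbered 22 in the LDHA window and 9 in the LDHB window, against a median of 11 over all windows, and methylation was not measured.

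Among the lactate transporters, SLC16A3 showed the same on-or-off pattern as LDHB. SLC16A3 encodes MCT4, a proton-coupled carrier typical of cells that export lactate. It was at 58.6, 52.9 and 56.7 FPKM in resistant and at 0.272, 0.138 and 0.223 FPKM in sensitive libraries. The resistant mean of 56.1 ± 2.89 FPKM was 266 times the sensitive mean of 0.211 ± 0.0676 FPKM, and the log2 difference was 5.56 (SE 0.11). SLC16A1 encodes MCT1, which carries lactate and pyruvate in either direction, and was at 39.0, 40.5 and 39.3 FPKM in resistant and 35.8, 30.9 and 21.1 FPKM in sensitive libraries. Resistant values all lay above the sensitive ones, but the gap was narrow and sensitive replicate 3 was the lowest (log2 difference 0.45, SE 0.19). MCT4 thus made up 58.6% ± 1.74 of the SLC16A1 and SLC16A3 transcripts in resistant and 0.748% ± 0.299 in sensitive cells, and their sum was 95.6 ± 2.10 FPKM in resistant and 29.5 ± 7.51 FPKM in sensitive cells.

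The SLC16A3 window with the most annotated transcript starts (5 windows are in the table) is shown because this gene, too, is described in the literature as a target of hypoxia-inducible factors. It is at chr17:82228792-82229041 (plus strand), drawn as above.
SLC16A3: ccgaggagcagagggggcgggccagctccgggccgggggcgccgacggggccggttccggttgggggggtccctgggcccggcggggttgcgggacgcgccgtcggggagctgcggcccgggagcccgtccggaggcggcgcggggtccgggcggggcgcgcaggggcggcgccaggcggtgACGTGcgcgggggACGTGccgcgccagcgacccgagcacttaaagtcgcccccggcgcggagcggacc
It held the core at 2 places and 43 CG dinucleotides. The core was not particular to LDHA and SLC16A3 among the 10 genes. Windows chosen in the same way held 5 separate stretches with it for BSG, 3 for PDHA1 and 2 each for PDK1, PDK2 and PDK3, and 0 for PDK4.

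BSG, basigin or CD147, is the chaperone that brings MCT1 and MCT4 to the plasma membrane. It was at 399, 373 and 377 FPKM in resistant and at 229, 261 and 386 FPKM in sensitive libraries. Sensitive replicate 3 lay inside the resistant range, so the groups overlapped (383 ± 14.0 FPKM in resistant and 292 ± 83.2 FPKM in sensitive cells, log2 difference 0.43, SE 0.19). These differences moved with single sensitive libraries: without sensitive replicate 3 that of BSG was 0.65 and that of SLC16A1 0.24, and without sensitive replicate 1 that of SLC16A1 was 0.61. Basigin transcripts outnumbered those of the 2 transporters by 4.01 ± 0.0834 to 1 in resistant and by 10.9 ± 6.28 to 1 in sensitive cells, with sensitive libraries spread from 6.33 to 18.1.

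The PDH kinases were low in every library and, summed, lower in resistant cells. Their sum was 4.14, 4.60 and 5.41 FPKM in resistant and 14.7, 14.2 and 13.6 FPKM in sensitive replicates 1 to 3. PDK4, the isoform induced by fasting and fatty acids, was at 0.0780, 0.0494 and 0 FPKM in resistant and 4.80, 4.02 and 4.76 FPKM in sensitive libraries. Resistant replicate 3 is listed at 0, which can be a failed estimate, so no ratio of means is given (log2 difference -2.40, SE 0.10). PDK3, the isoform with the highest activity in vitro, was at 0.250, 0.278 and 0.405 FPKM in resistant and 2.92, 2.45 and 1.66 FPKM in sensitive libraries (log2 difference -1.33, SE 0.15). PDK2, the most widely expressed isoform, was at 2.56, 2.82 and 3.41 FPKM in resistant and 5.69, 6.64 and 5.99 FPKM in sensitive libraries (log2 difference -0.86, SE 0.13). Groups did not overlap for these 3 kinases.

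PDK1, a target of hypoxia-inducible factor 1, had overlapping groups. Its values were 1.25, 1.45 and 1.60 FPKM in resistant and 1.29, 1.09 and 1.21 FPKM in sensitive libraries (log2 difference 0.15, SE 0.10). The make-up of the kinase pool therefore differed: PDK1 made up 30.4% ± 1.02 of it in resistant and 8.45% ± 0.687 in sensitive cells, and PDK4 at most 1.89% in a resistant library, against 32.0% ± 3.37 in sensitive cells. PDK2 was the most abundant kinase in each of the 6 libraries, at 62.1% ± 0.810 of the pool in resistant and 43.2% ± 4.10 in sensitive cells. PDK3 held 6.52% ± 0.835 in resistant and 16.4% ± 3.88 in sensitive cells. Log2 differences of such low values are damped by the added 1 FPKM: with 0.1 FPKM added, that of PDK4 was -5.06 and that of PDK3 -2.55.

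**Figure D2:**
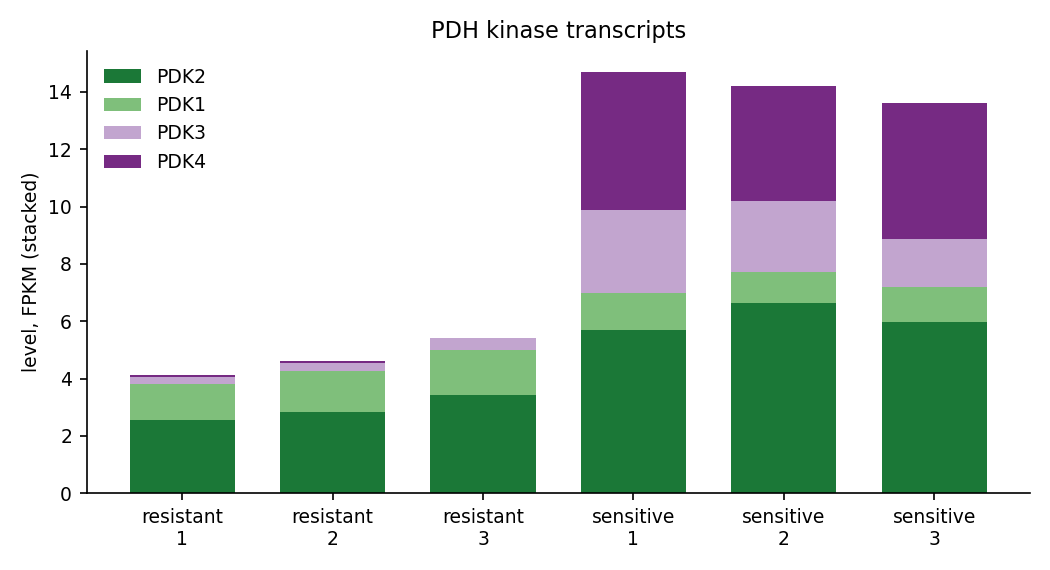
Levels of the 4 PDH kinases, stacked as FPKM for each library. The 3 resistant libraries reach 4.14 to 5.41 FPKM and the 3 sensitive ones 13.6 to 14.7 FPKM, with almost no PDK4 in the resistant ones.

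PDHA1, the catalytic subunit that these kinases phosphorylate, was at 27.7, 27.5 and 26.1 FPKM in resistant and 46.1, 50.2 and 52.3 FPKM in sensitive libraries. The groups did not overlap (27.1 ± 0.873 FPKM in resistant and 49.5 ± 3.14 FPKM in sensitive cells, log2 difference -0.84, SE 0.10). PDHA1 transcripts exceeded those of the 4 kinases by 5.83 ± 0.949 to 1 in resistant and 3.50 ± 0.352 to 1 in sensitive cells.

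Of the 10 genes, all of which passed the filter on low values, 2 were called higher and 5 lower in resistant cells at an adjusted p under 0.05 in the limma fit over all genes. That is the same contrast the genes were chosen with, and 67.7% of the 11694 tested genes were called in it (35.2% higher and 32.5% lower), so nothing is read from the count, which was 8 without sensitive replicate 1 and 9 without sensitive replicate 3. Groups did not overlap for 8 of the 10, against 74.4% of all tested genes. The median log2 difference was -0.20 over the 10 genes and 0.08 over all tested genes. LDHB and SLC16A3 were kept by the filter on resistant values only, and PDK3 and PDK4 on sensitive ones, which fixed the direction of these 4.

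Ranked by mean level in resistant cells, the order was LDHB, LDHA, BSG, SLC16A3, SLC16A1, PDHA1, PDK2, PDK1, PDK3 and PDK4. Among neighbours in that order, the library ranges of LDHB and LDHA overlapped and those of the other pairs did not. In sensitive cells the order was LDHA, BSG, PDHA1, SLC16A1, PDK2, PDK4, PDK3, PDK1, LDHB and SLC16A3, and there the ranges of LDHB and SLC16A3 alone overlapped. LDHB stood at the top in resistant cells and next to last in sensitive cells.

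**Figure D3:**
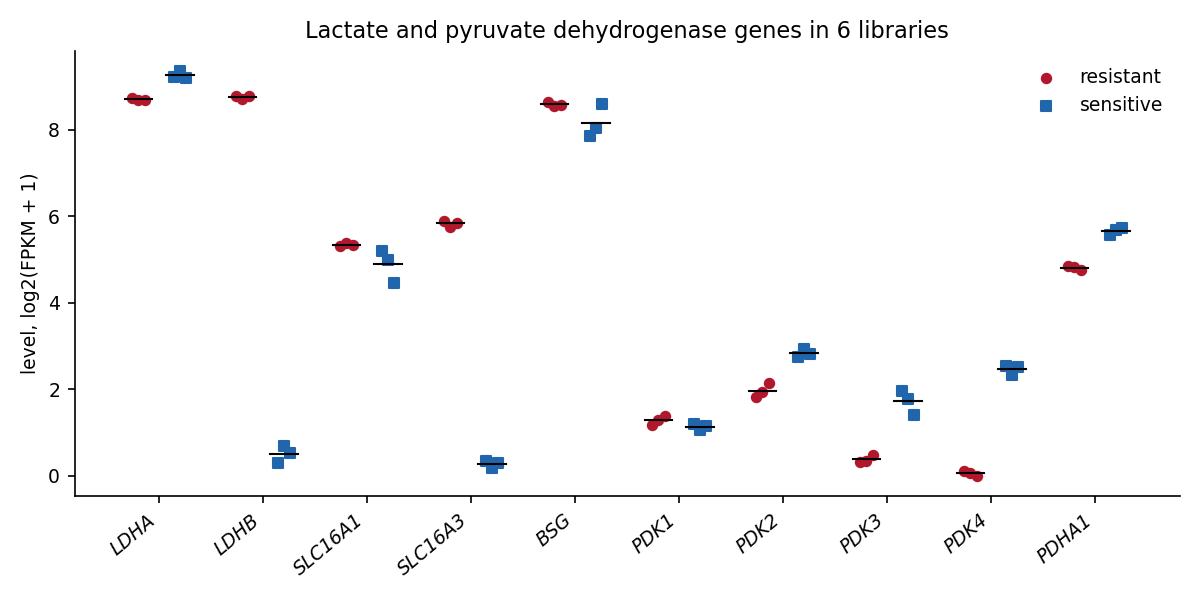
Level of each of the 10 genes as log2(FPKM + 1), with a point for each library and a black bar at the mean of the 3 libraries (circles, resistant; squares, sensitive). LDHB and SLC16A3 stand near the floor in sensitive libraries only, PDK3 and PDK4 in resistant ones, and BSG and PDK1 overlap.

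The genes whose log2(FPKM + 1) values over the 6 libraries came closest to those of LDHB were IGFBP4, IL6, MT1E, CD9 and PADI2. Their root mean square difference from LDHB ran from 0.25 for IGFBP4, an IGF-binding protein at 476 ± 18.0 FPKM in resistant and 0.714 ± 0.156 FPKM in sensitive cells, to 0.70 for PADI2.

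Around the PDH complex, the carrier that brings pyruvate into the mitochondrion fell and a PDH phosphatase rose. The lists of genes used here and in the paragraphs that follow were chosen with earlier results of these data known. Most of their named genes were picked for being called in this same fit. Their adjusted p-values are thus a description and add no support. Of 9 tested genes of the pyruvate carrier, PDH complex and phosphatase list 2 rose, 3 fell and 4 did not pass. The share called was 55.6%, against 67.7% of all tested genes, a difference that was not tested. The median log2 difference was 0.01, against 0.08 over all tested genes. The carrier subunit MPC1 fell to 2.59 ± 0.416 FPKM in resistant cells, against 11.7 ± 1.36 FPKM in sensitive cells (log2 difference -1.82, SE 0.15, limma adjusted p = 4.17e-05). Its partner MPC2 fell to 19.2 ± 2.10 FPKM in resistant cells, against 64.9 ± 9.48 FPKM in sensitive cells (-1.70, SE 0.14, limma adjusted p = 5.13e-05). DLAT, the acetyltransferase core of the complex, fell to 17.7 ± 0.341 FPKM in resistant cells, against 69.1 ± 14.3 FPKM in sensitive cells (-1.88, SE 0.17, limma adjusted p = 6.58e-05). PDHB, DLD and PDHX of the same list overlapped between groups and were not called, at log2 differences of 0.01, -0.20 and 0.12. PDP1, the phosphatase that removes the kinases' phosphates from PDHA1, rose to 24.0 ± 1.24 FPKM in resistant cells, against 2.33 ± 0.300 FPKM in sensitive cells (2.91, SE 0.12, limma adjusted p = 2.14e-06). PDP1 stood to the summed kinases at 5.18 ± 0.925 to 1 in resistant and at 0.165 ± 0.0252 to 1 in sensitive cells, with no overlap. This ratio leaves out PDP2, another PDH phosphatase of the list, which was above PDP1 in sensitive cells. PDP2 was at 6.23 ± 0.827 FPKM in resistant and 5.36 ± 0.647 FPKM in sensitive cells, with overlap (log2 difference 0.18, limma adjusted p = 0.282). PDPR, the other gene of the list that rose, is not in the ratio either. It was at 9.79 ± 0.440 FPKM in resistant and 5.12 ± 1.08 FPKM in sensitive cells (log2 difference 0.83).

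Other carriers of monocarboxylates also split. Of 16 listed genes 7 were tested, and 4 rose, 2 fell and 1 did not pass (median log2 difference 1.24). That is 85.7% called, against 67.7% of all tested genes, a difference that was not tested. The filter kept 2 of the 7, SLC16A9 and SLC16A14, on resistant values only, which fixed their direction. The median is the value of SLC16A14. Embigin (EMB), the partner of MCT2 and a relative of basigin, was at 7.72 ± 1.80 FPKM in resistant cells and 0.819 ± 0.508 FPKM in sensitive cells (log2 difference 2.28). Its sensitive values were 1.28, 0.907 and 0.273 FPKM, so EMB passed the filter only with its resistant values, the group where it was high. Neuroplastin (NPTN), another member of the basigin family, fell to 22.3 ± 1.79 FPKM in resistant cells, against 81.1 ± 5.17 FPKM in sensitive cells (-1.82, limma adjusted p = 9.18e-06). SLC16A9, a carnitine carrier, differed by 1.52 and was kept by the filter on resistant values only, which fixed its direction. SLC16A13 fell by 1.52. LDHD, the mitochondrial D-lactate dehydrogenase, was the 1 tested member of the other lactate dehydrogenases. It was at 0.754 ± 0.235 FPKM in resistant cells and 3.85 ± 1.94 FPKM in sensitive cells (log2 difference -1.40), and was kept by the filter on sensitive values only, which fixed its direction. LDHC, the testis subunit, was at 0.0484, 0.0482 and 0.0120 FPKM in resistant libraries and was listed at 0 in the sensitive ones.

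Glucose uptake and glycolysis genes went both ways, with 8 of 21 tested genes higher, 11 lower and 2 not past the test (median log2 difference -0.37). The share called was 90.5%, against 67.7% of all tested genes, a difference that was not tested. The glucose transporter SLC2A3 (GLUT3) fell by 6.19 on the log2 scale, to 5.15 ± 0.787 FPKM in resistant cells, against 452 ± 88.1 FPKM in sensitive cells (limma adjusted p = 5.71e-07). How reads of SLC2A3 were divided with its close paralog SLC2A14 is uncertain. SLC2A2 (GLUT2, the hepatocyte form) differed by -4.62 and was kept by the filter on sensitive values only, which fixed its direction. The transporter SLC2A1 (GLUT1) went the other way. It was at 77.5 ± 10.5 FPKM in resistant cells and 18.9 ± 6.20 FPKM in sensitive cells (log2 difference 2.02, limma adjusted p = 0.000262), with no overlap. PGAM1, which converts 3-phosphoglycerate, fell to 85.0 ± 4.17 FPKM in resistant cells, against 505 ± 41.7 FPKM in sensitive cells (-2.56, limma adjusted p = 1.80e-06). ENO2, the neuronal enolase, was at 47.4 ± 2.77 FPKM in resistant cells and 0.190 ± 0.176 FPKM in sensitive cells (log2 difference 5.35). It was kept by the filter on resistant values only, which fixed its direction.

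Of 8 tested genes of gluconeogenesis and alanine formation 5 fell, 1 rose and 2 did not pass (median log2 difference -1.47, and 2 higher without sensitive replicate 3). That is 75% called, against 67.7% of all tested genes, a difference that was not tested. The filter kept 3 of the 8, G6PC1, PCK1 and GPT, on sensitive values only, which fixed their direction. The median lies between the values of GPT (-1.29) and SLC37A4. G6PC1, the last step of glucose release, differed by -6.10 and PCK1, which makes phosphoenolpyruvate, by -3.85, and each was kept by the filter on sensitive values only, which fixed its direction. PCK2, the gene of this list called higher, was above PCK1 in each group. It was at 52.5 ± 2.44 FPKM in resistant and 32.3 ± 7.91 FPKM in sensitive cells (log2 difference 0.71). G6PC3 was at 21.8 ± 1.31 FPKM in resistant and 22.0 ± 4.27 FPKM in sensitive cells, with overlap. Pyruvate carboxylase (PC), the other mitochondrial use of pyruvate, fell to 2.83 ± 0.159 FPKM in resistant cells, against 14.1 ± 1.64 FPKM in sensitive cells (-1.97, limma adjusted p = 1.44e-05). SLC37A4, the glucose-6-phosphate transporter, fell by 1.65.

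Of 16 citric acid cycle genes 10 fell, 1 rose and 5 did not pass (median log2 difference -0.54, and 2 higher without sensitive replicate 3). That is 68.75% called, close to the 67.7% of all tested genes, so nothing is read from the number called. The falls that were named were small beside those above: SDHD by 0.98, SDHA by 0.86 and MDH2 by 0.82. Tested against a 1.5-fold change, 1 of the 16 was lower in place of 10, and the calls of SDHA (limma adjusted p = 0.0969) and MDH2 (limma adjusted p = 0.226) ended. DLST, the succinyltransferase core of 2-oxoglutarate dehydrogenase, rose to 57.6 ± 1.45 FPKM in resistant cells, against 23.6 ± 0.751 FPKM in sensitive cells (1.25, limma adjusted p = 2.35e-05).

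Shuttles that pass NADH electrons into the mitochondrion, an alternative to lactate formation for restoring cytosolic NAD, gave 1 of 7 tested genes higher, 2 lower and 4 not past the test, or 42.9% called, against 67.7% of all tested genes, a difference that was not tested (median log2 difference -0.02). The aspartate aminotransferase GOT2 rose by 0.68 and the aspartate carrier SLC25A13 fell by 0.68. Cytosolic malate dehydrogenase (MDH1) fell by 0.72, a call that ended when any library but sensitive replicate 3 was left out (limma adjusted p from 0.0607 to 0.0861), under quantile normalization (0.0866) and with no filter (0.0552). Without sensitive replicate 1 there were 2 higher in this list, and without sensitive replicate 3 there were 3. Without sensitive replicate 2 or any of the resistant replicates there was 1 lower. Against a 1.5-fold change the limma test called 0 of these genes in either direction, against 3 at an adjusted p under 0.05 with no such margin.

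Transcription factors known to act on LDH or PDK genes gave 4 higher, 4 lower and 2 not past the test of 10 tested (median log2 difference -0.16). The share called was 80%, against 67.7% of all tested genes, a difference that was not tested. HIF1A, the oxygen-regulated activator of LDHA, SLC16A3 and PDK1, was at 92.4, 106 and 107 FPKM in resistant and at 28.7, 19.6 and 8.52 FPKM in sensitive libraries, and rose by 2.51 (SE 0.39, limma adjusted p = 0.00107). Its relative EPAS1 rose to 81.1 ± 2.07 FPKM in resistant cells, against 32.0 ± 3.29 FPKM in sensitive cells (1.32, limma adjusted p = 4.64e-05). HIF proteins are set mainly by their breakdown, which RNA does not show. FOXO1, an activator of PDK4, was at 0.825 ± 0.0876 FPKM in resistant cells and 3.70 ± 0.782 FPKM in sensitive cells (log2 difference -1.35). PPARGC1A, a coactivator of PDK4 and of mitochondrial genes, was at 0.0452 ± 0.0233 FPKM in resistant cells and 3.60 ± 1.21 FPKM in sensitive cells (log2 difference -2.10). FOXO1 and PPARGC1A were kept by the filter on sensitive values only, which fixed their direction. From the same list, FOXO3 was at 3.85 ± 0.211 FPKM in resistant cells and 1.19 ± 0.417 FPKM in sensitive cells (log2 difference 1.17). Its sensitive values were 1.46, 1.40 and 0.707 FPKM, so FOXO3 passed the filter only with its resistant values. MYC rose to 43.8 ± 1.82 FPKM in resistant cells, against 17.3 ± 2.38 FPKM in sensitive cells (1.30, limma adjusted p = 9.51e-05). PPARD (-0.93) and ESRRA (-1.05) were also called lower.

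**Figure D4:**
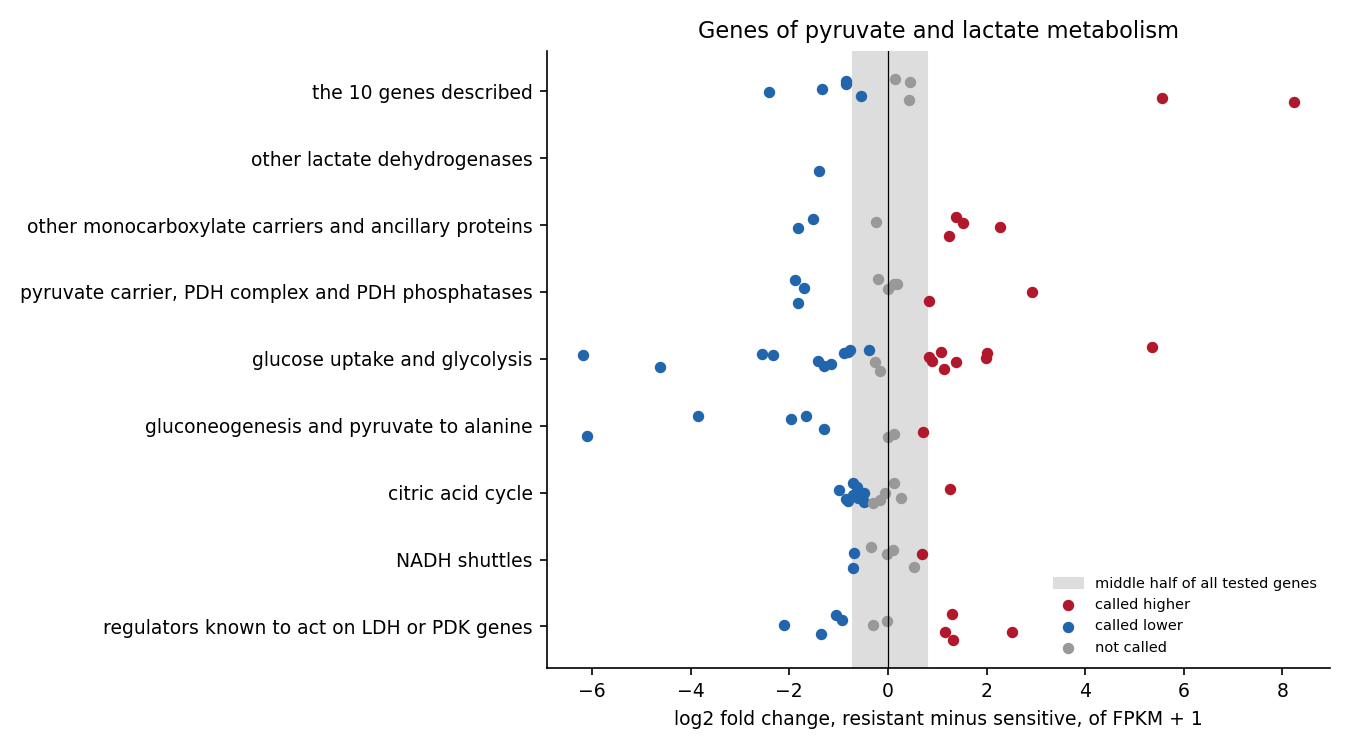
Log2 fold change, resistant minus sensitive, of each tested gene in the 10-gene set and in the 8 pathway lists (horizontal axis; red, called higher; blue, called lower; grey, not called), with the grey band from the lower to the upper quartile of all tested genes. LDHB at 8.24 is the farthest point to the right. LDHA and the 3 genes of the 10-gene set that were not called lie within the grey band.

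Over the 8 lists, 59 of 79 tested genes were called (21 higher and 38 lower), or 74.7%, against 67.7% of all tested genes. For 10 of the 79, only 1 group held libraries of at least 1 FPKM, so that the filter fixed their direction. EMB, FOXO3, ALDOA and PFKFB2 (from the glycolysis list) reached 1 FPKM in part of their lower group. They passed the filter only with values of the higher group. Reads of some genes described here may have been shared. RefSeq names 6 pseudogene copies of LDHA, 3 of LDHB, 2 of PDK1 and 1 each of SLC16A1 and PDHA1, none with a row of its own here. BSG, PDK2, SLC16A3 and PDHA1 overlap other genes in RefSeq, of which CSNK1D beside SLC16A3 was at 25.4 to 27.3 FPKM in resistant and 22.3 to 27.4 FPKM in sensitive libraries. The antisense gene BSG-AS1 was at 6.08 to 8.55 FPKM in resistant and 7.21 to 10.6 FPKM in sensitive libraries, and the strand setting of the counting is not given in the sources used here.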

How the data were processed

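RNA-seq of 6 libraries was used, 3 resistant and 3 sensitive, grouped by title. For each library the authors deposited a list of gene symbols, each with a single value, taken here to be FPKM from the look of the values (RPKM could not be told from it). Processing notes from the submitters name cutadapt and HISAT2. Versions, counting program, build and annotation were not given in the sources used here. No read counts were used, so depth is known only in relative terms, and a listed 0 may be an estimate that failed.

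Genes reaching 1 FPKM or more in 3 or more libraries were fitted as log2(FPKM + 1) on group with limma-trend (limma 3.58.1, R 4.3.3). P-values were adjusted by Benjamini-Hochberg over every tested gene, with calls made below 0.05. The code was tested on simulated data. Python 3.11.15 and matplotlib 3.10.9 drew the figures. Errors are SD over libraries, and SE comes from limma.

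The 10 genes and 8 pathway lists were chosen with earlier results of these data known. From each list the text names up to 4 called genes with non-overlapping groups, by size of change, or the 2 highest by mean where fewer than 2 qualified, and the 5 genes nearest to LDHB by root mean square difference. Marker genes, overlapping genes and the genes of the closing observations were named after their values were seen. So were SLC16A14, GPT, SLC2A1, PDP2, PDPR, PDHB, DLD, PDHX, PCK2, G6PC3, PFKFB2, FOXO3, MYC, PPARD and ESRRA. Alternatives covered the normalization (quantile, or scaled to the geometric mean sample), the variance model (untrended or robust), the filter (none, or mean 5 FPKM), the added constant (0.1), the replicate block, a 1.5-fold null and leaving out each library. Leaving out sensitive replicate 3 with resistant replicate 2 was chosen after seeing the data.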

Additional observations from a re-analysis of the deposited data

How the results depend on the processing

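Each of the 10 genes kept its direction under every alternative run, and 149 values kept their side of the threshold, with 5 newly past it and 2 no longer. As these genes were chosen on this contrast, nothing is read from their calls. LDHA (-0.55) and PDK2 (-0.86) were no longer called when tested against a 1.5-fold change, with 4357 genes called over all and 37 pathway genes against 59. With a mean of at least 5 FPKM, 4973 genes were called, and 4 of the 10 genes, since PDK1 to PDK4 were then not tested. The BSG difference was called under quantile normalization (0.47) and without sensitive replicate 3 (0.65). It was also called without sensitive replicate 3 and resistant replicate 2 together (0.67), a setting chosen after seeing the data. That of SLC16A1 was called without sensitive replicate 1 or 3. Leaving out 1 library gave log2 differences of 0.27 to 0.65 for BSG and 0.24 to 0.61 for SLC16A1, 7 to 9 of the 10 genes called, and 6675 to 9442 genes over all. With 1 FPKM added, the sensitive LDHA to LDHB ratio was 429, against 1632 without, and 1167 to 1926 when 1 library was left out. Replicate numbers share no stated culture or day, so the libraries were not treated as pairs. The deviations of same-numbered libraries from their group means correlated at -0.42, 0.07 and -0.23. With 3 libraries per group these values cannot tell whether the libraries are paired. With the replicate number as a block 7193 genes were called. Pathway genes named by size of change kept direction and call in 431 values and lost the call in 12. Of these 12, 8 were of MDH1 and the others those of SDHA, MDH2, GOT2 and SLC25A13 against a 1.5-fold change. That test also left 7 of 11 glycolysis genes lower, 2 of 4 regulators lower, 1 of 2 PDH complex genes higher and 0 of 1 gluconeogenesis genes higher. The cause of these changes was not tested beyond the fewer genes or samples each setting holds. Without read counts, no counting error can be given for the lowest values.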

Other observations

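ALDOA, the aldolase of glycolysis, was at 1.07, 0.838 and 0.872 FPKM in resistant and at 2.18, 2.71 and 8.06 FPKM in sensitive libraries, while GAPDH, a step further down the same pathway, was at 2194 to 2597 FPKM in resistant and 3548 to 4752 FPKM in sensitive libraries. In RefSeq, ALDOA overlaps the gene LOC112694756, whose row was at 0.405 to 0.632 FPKM in resistant and 0.573 to 0.964 FPKM in sensitive libraries. The part of that overlap in the low ALDOA values was not tested.

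SLC16A7, which encodes MCT2, stayed under the filter, at 0.679, 0.816 and 0.904 FPKM in resistant and at most 0.00886 FPKM in sensitive libraries. SLC16A10, an aromatic amino acid carrier, was at most 0.0246 FPKM in resistant and at 0.821, 0.949 and 0.559 FPKM in sensitive libraries.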
